A study of Mus musculus with 10 samples.

Results

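The 10 genes described here encode the ligands of vascular endothelial growth factor (VEGF) signalling (Vegfa, Vegfb, Vegfc, Vegfd and Pgf), its receptor tyrosine kinases (Flt1, Kdr and Flt4) and the neuropilin co-receptors (Nrp1 and Nrp2), taken by gene symbol from the 55401 genes of the deposited count table. All 10 were found, and all 10 were among the 14815 genes that passed the filter on low counts. RNA came from cells sorted as CD45-CD31+podoplanin+ from the meninges of 3-month-old female C57BL/6 mice, with 5 libraries from naive mice and 5 from mice given 6 days of sub-chronic variable stress (SCVS), in which foot shock, tail suspension and restraint alternate. Cells of 3 to 4 animals were pooled for each library, and the digestion buffer of both groups held actinomycin D, an inhibitor of transcription. The comparison asked whether stress changes the transcripts of meningeal lymphatic endothelial cells (LECs) in female mice. The libraries held 9984743 to 14094155 reads assigned to genes, and values are given as CPM, counts scaled to this total.

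VEGF ligands are secreted proteins that bind receptor tyrosine kinases on endothelial cells. VEGF-A acts mainly through VEGFR2, encoded by Kdr, to drive the growth and permeability of blood vessels, whereas VEGFR1, encoded by Flt1, binds VEGF-A, VEGF-B and placental growth factor and can hold VEGF-A away from VEGFR2. VEGF-C and VEGF-D act through VEGFR3, encoded by Flt4, which is kept at high level in lymphatic endothelium, and VEGF-C with VEGFR3 is needed for the growth and upkeep of meningeal lymphatic vessels. Neuropilin 1 binds VEGF-A and neuropilin 2 binds VEGF-C, each as a partner of the receptors.

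The labelled cell type was checked with lists of markers that hold none of the 10 genes. All 7 pan-endothelial genes (Pecam1, Cdh5, Tie1, Tek, Erg, Emcn and Egfl7) had more than 3 counts in every library, and all 8 lymphatic genes (Prox1, Lyve1, Pdpn, Mmrn1, Ccl21a, Reln, Tbx1 and Maf) did so in 6 of 10 libraries. Naive replicate 1 had 0 counts of Prox1, Pdpn and Tbx1 and 2 of Lyve1, although Pdpn encodes the podoplanin used in the sort. SCVS replicate 1 had 1 count of Tbx1 and SCVS replicate 5 had 2 of Prox1. Naive replicate 5 had 843 counts of Prox1 but 0 of Tbx1 and 1 of Lyve1. It stood apart from all others, with a summed level of the pan-endothelial list of 408 CPM against 3617 to 6975 in the other libraries. The same library had 188 CPM of the 7 blood endothelial genes (Aplnr, Cldn5, Ly6c1, Plvap, Slco1a4, Sox17 and Vwf), against 4278 to 8658 elsewhere. The neuronal gene Snap25 was counted 20496 times in naive replicate 5, 9023 times in SCVS replicate 5 and 0 to 2518 times in the others, and Syt1, also neuronal, 1718, 999 and 0 to 282 times. The myelin gene Mbp was highest in naive replicate 5 with 16599 counts and in SCVS replicate 4 with 13045, and the astrocyte gene Gfap in SCVS replicate 4 with 3555, against 2050 in naive replicate 5. The summed lymphatic list ranged from 38.3 to 2755 CPM in naive and from 428 to 3099 CPM in SCVS libraries. In every library the summed blood endothelial list was higher than the summed lymphatic list. The values were 6384 against 38.3 CPM in naive replicate 1, 187.5 against 177.6 in naive replicate 5 and 7804 against 919.8 in SCVS replicate 2. These sums hold different genes and were not scaled for length. Transcripts of other cells were also counted, with a summed myeloid list (Ptprc, Cd68, Csf1r, Lyz2 and Mrc1) of 0.480 to 494 CPM in naive and 133 to 3557 CPM in SCVS libraries, and a fibroblast list (Col1a1, Col1a2, Dcn, Lum and Pdgfra) of 50.9 to 1318 and 18.5 to 1500 CPM. The mural list (Pdgfrb, Rgs5, Acta2, Cspg4, Kcnj8 and Myh11) summed to 765 to 7469 and 425 to 5914 CPM, and the erythroid list (Hbb-bs, Hbb-bt, Hba-a1, Hba-a2 and Alas2) to 4.32 to 46.7 and 10.9 to 4863 CPM. No gene of these lists was at 0 in every library. In such bulk libraries fewer cells of a type and less RNA per cell cannot be told apart, and the part of other cells in the values below was not tested. Values that rest on naive replicate 5 are given with and without it.

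Levels of different genes were compared per kilobase of annotated exon, taken as the union of the exons of all annotated transcripts of a gene. Nrp1 had the highest median over the 10 libraries, 157.7 CPM per kilobase, followed by Kdr with 124.7 and Flt1 with 100. Nrp2, Pgf, Vegfc and Flt4 followed with medians of 12.3, 11.4, 10.98 and 10.9 CPM per kilobase, and Vegfa, Vegfb and Vegfd were lowest with 2.69, 0.563 and 0.0399. Kdr exceeded Flt1 per kilobase in 10 of 10 libraries, and Flt1 exceeded Nrp2 in 10 of 10. The other neighbours in this order changed places between libraries: Nrp1 exceeded Kdr in 6 of 10, Nrp2 exceeded Pgf in 6, Pgf exceeded Vegfc in 4, Vegfc exceeded Flt4 in 3 and Vegfa exceeded Vegfb in 6. Flt4 exceeded Vegfa in 8 of 10 and Vegfb exceeded Vegfd in 5. Per kilobase, Flt4 was thus the lowest of the 3 receptor genes in every library. The order of Kdr and Flt1 rests on the exon length, 7.278 kb for Kdr and 11.58 kb for Flt1. In CPM, Flt1 was above Kdr in naive replicates 1 to 4 and in SCVS replicates 3 and 5. The part of blood endothelial transcripts in these levels was not tested.

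**Figure D1:**
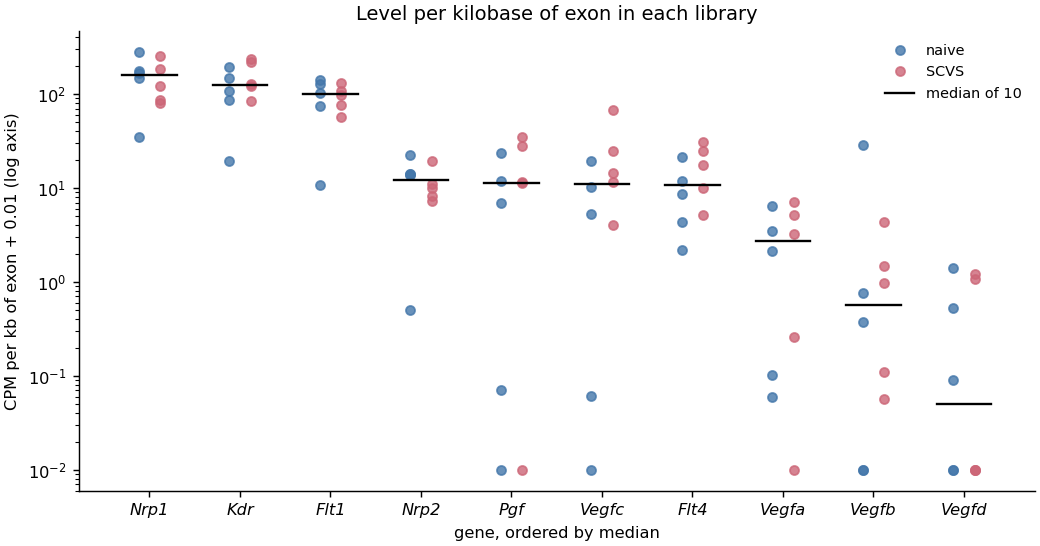
CPM per kilobase of exon (with 0.01 added, log axis) of the 10 genes, ordered by median, with 1 point per library in blue for naive and red for SCVS and a black line at the median of the 10 libraries. Nrp1, Kdr and Flt1 have the highest medians, 157.7, 124.7 and 100 CPM per kilobase, and those of Nrp2, Pgf, Vegfc and Flt4 lie between 10.9 and 12.3.

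The ratio of Kdr to Flt4 per kilobase lay between 4.04 and 44.5 in naive libraries, with a median of 9.04, and between 4.89 and 23.6 in SCVS libraries, with a median of 7.39. The highest ratio was that of naive replicate 1, the library without Prox1 counts. Flt4 made up 1.34% to 11.7% of the reads per kilobase on the 3 receptors in naive and 2.82% to 12.2% in SCVS libraries. The ratio of Flt1 to Kdr was narrower, from 0.559 to 0.959 in naive and from 0.461 to 0.912 in SCVS libraries. Nrp1 exceeded Nrp2 by 6.61 to 70.0 times in naive and by 4.39 to 23.2 times in SCVS libraries, the value of 70.0 being that of naive replicate 5. Each of these ratios overlapped between the groups.

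Flt4 and Vegfc, the receptor and ligand of lymphatic growth, lie on chromosome 11 from 49609679 to 49652739 and on chromosome 8 from 54077532 to 54186454 of GRCm38.p6, in the RefSeq annotation. As the pair of genes with the clearest lymphatic role among the 10, their 250 bases upstream of the annotated start are shown from the RefSeq promoter table (GRCm38.p6, plus strand, chr11:49609429-49609678 for Flt4 and chr8:54077282-54077531 for Vegfc), with matches to the GC box GGGCGG or its reverse complement CCGCCC in capitals.
Flt4: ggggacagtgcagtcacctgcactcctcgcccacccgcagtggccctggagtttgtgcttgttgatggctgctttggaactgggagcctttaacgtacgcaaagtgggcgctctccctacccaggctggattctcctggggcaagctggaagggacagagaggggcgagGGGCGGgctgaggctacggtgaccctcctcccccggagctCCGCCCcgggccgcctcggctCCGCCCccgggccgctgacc
Vegfc: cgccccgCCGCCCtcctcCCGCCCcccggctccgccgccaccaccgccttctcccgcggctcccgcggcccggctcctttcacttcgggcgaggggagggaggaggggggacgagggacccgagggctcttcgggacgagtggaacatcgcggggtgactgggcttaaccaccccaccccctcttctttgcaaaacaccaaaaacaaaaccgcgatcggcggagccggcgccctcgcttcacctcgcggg
The window of Flt4 held 3 matches and 16 CpG dinucleotides, and that of Vegfc held 2 matches and 30 CpG, against a median of 6 CpG over all 32851 windows of this length. A GC box was found in 10 of the 12 windows of the 10 genes and in 32.7% of all windows, the letters TATAAA or TTTATA in 2 of 12 and 12.4% of all, and the core of ETS factor sites, GGAA or TTCC, in 10 of 12 and 93.5% of all. Neither the Flt4 nor the Vegfc window held TATAAA or TTTATA. These matches describe letters only.

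Across the contrast of SCVS with naive mice, none of the 10 genes changed beyond the spread of the replicates. With the quasi-likelihood test of edgeR, adjusted by Benjamini-Hochberg over all 14815 genes, the adjusted p was 1.0 for each of the 10, and 0% of all genes had an adjusted p under 0.1. At an unadjusted p under 0.05 there were 0 of the 10 genes, where 3.1% of all genes passed. DESeq2 called 0 of the 10 and 0.769% of all genes, but gave no p-value for Vegfb, which its Cook filter set aside. The groups overlapped in CPM for each of the 10, whereas they did not overlap for 0.628% of all genes, and in the exact permutation test on CPM 0 of the 10 had an unadjusted p under 0.05, against 3.79% of all genes. The log2 fold change was positive for 6 of the 10 genes. These p-values measure the spread between pools, and the exact test of 5 libraries against 5 cannot go below 0.00794.

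**Figure D2:**
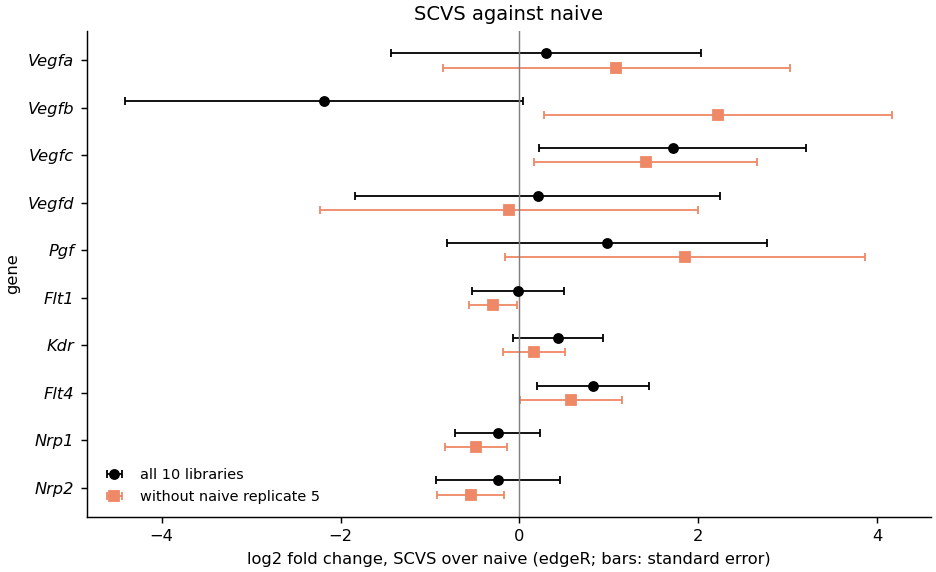
Log2 fold change of SCVS over naive from edgeR with its standard error as bars, for all 10 libraries (black circles) and without naive replicate 5 (orange squares). With all 10 libraries the ligands have standard errors of 1.49 to 2.23 and the receptors and neuropilins of 0.48 to 0.69, and Vegfb moves from −2.18 to 2.22 when that library is left out.

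Among the receptors, Flt4 (ENSMUSG00000020357), which encodes VEGFR3, had 36.1, 174.1, 71.6, 97.6 and 18.0 CPM in naive replicates 1 to 5. In SCVS replicates 1 to 5 it had 81.2, 256.3, 143.9, 202.3 and 42.5 CPM. SCVS replicates 2 and 4 lay above every naive library and SCVS replicate 5 below the naive median, so that the groups overlapped. The mean was 79.5 ± 61.2 CPM in naive and 145.2 ± 87.0 CPM in the SCVS group (SD, n = 5 each), for a log2 fold change of 0.82 (standard error 0.63). The exact two-sided permutation p was 0.206. Without naive replicate 5 the log2 fold change was 0.58 (standard error 0.57), and without naive replicates 1 and 5, both low in lymphatic markers, it was 0.31 (standard error 0.57). These fits kept SCVS replicate 5, the SCVS library lowest in the lymphatic list. Without that library alone it was 1.06 (standard error 0.61).

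Kdr (ENSMUSG00000062960, GRCm38.p6 chromosome 5, 75932827 to 75979072), which encodes VEGFR2, had 1419, 621, 1070.2, 781 and 140.7 CPM in naive replicates 1 to 5. Its values in SCVS replicates 1 to 5 were 1695, 1586, 940.4, 875 and 613 CPM. SCVS replicates 1 and 2 lay above all naive libraries, and naive replicate 5 lay below every other library. The mean was 806 ± 480.3 CPM in naive and 1142 ± 473 CPM in the SCVS group (SD, n = 5 each), for a log2 fold change of 0.43 (standard error 0.50; exact two-sided permutation p = 0.310). Without naive replicate 5 the naive mean was 973 ± 351 CPM (SD, n = 4) and the log2 fold change was 0.16 (standard error 0.34).

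Flt1 (ENSMUSG00000029648, chromosome 5, 147561604 to 147726438), whose product VEGFR1 takes up VEGF-A, had 1469.8, 869, 1615, 1191 and 125 CPM in naive replicates 1 to 5. In SCVS replicates 1 to 5 it had 1243, 1520.5, 1125.5, 666 and 890 CPM. The SCVS values lay within the naive range throughout. The means of 1054 ± 592 and 1089 ± 328 CPM (SD, n = 5 each) gave a log2 fold change of −0.02 (standard error 0.51; exact two-sided permutation p = 0.913), which was −0.30 (standard error 0.27) without naive replicate 5.

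**Figure D3:**
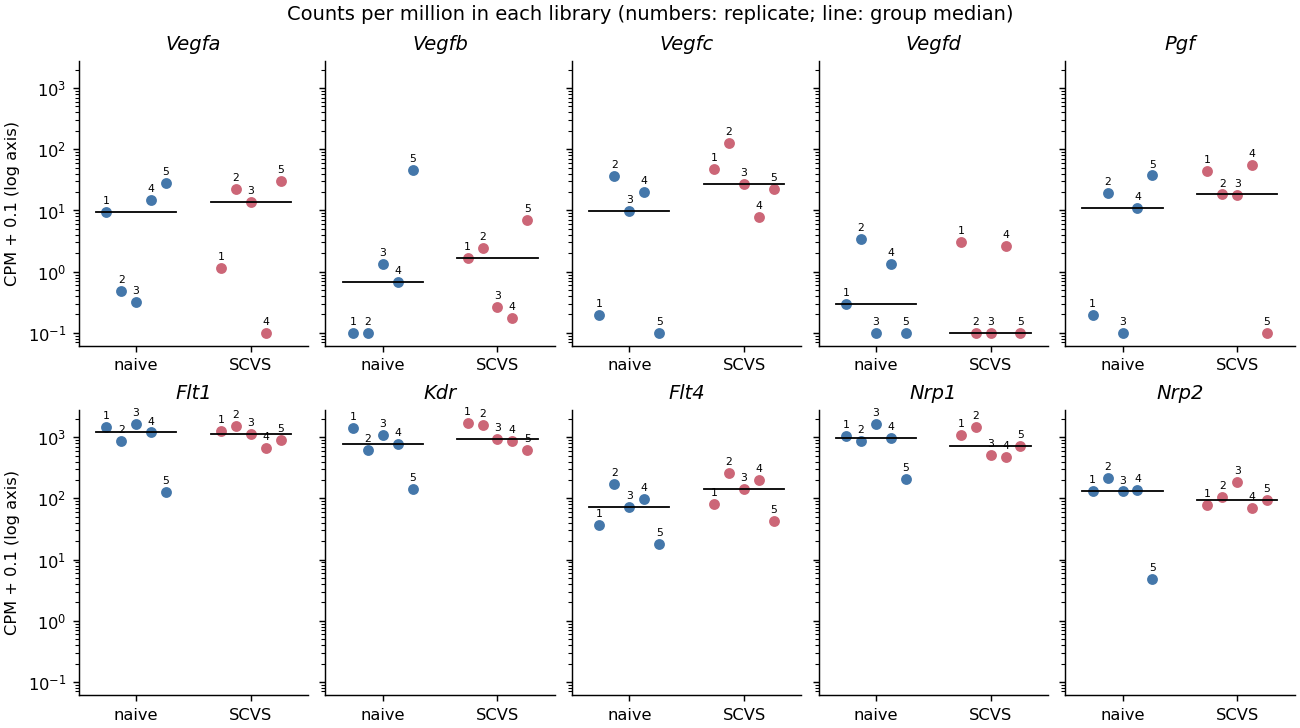
CPM (with 0.1 added, log axis) of each gene in each library, blue for naive and red for SCVS, with the replicate number above each point and a line at the group median. Ligands (upper row) range from 0 to 127.8 CPM and fall to or near 0 in some libraries, whereas the receptors and neuropilins (lower row) were counted in all 10, lowest in naive replicate 5.

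The neuropilins had lower means in SCVS than in naive mice, within the spread of the replicates. Nrp1 (ENSMUSG00000025810, chromosome 8, 128358591 to 128505476), the co-receptor for VEGF-A and for class 3 semaphorins, had 1038, 877, 1647, 986 and 206 CPM in naive replicates 1 to 5 and 1081, 1492, 505, 471 and 710.2 CPM in SCVS replicates 1 to 5. SCVS replicates 3 to 5 lay below naive replicates 1 to 4, and naive replicate 5 lay below all SCVS libraries. Its means of 951 ± 514 CPM in naive and 852 ± 432 CPM in the SCVS group (SD, n = 5 each) gave a log2 fold change of −0.24 (standard error 0.48; exact two-sided permutation p = 0.746), and −0.49 (standard error 0.35) without naive replicate 5. Nrp2 (ENSMUSG00000025969, chromosome 1, 62703317 to 62818692), the partner of VEGFR3 in lymphatic endothelium, had 133.9, 213.7, 129.4, 135.1 and 4.73 CPM in naive replicates 1 to 5. Its SCVS replicates 1 to 5 had 78.0, 103.6, 185.2, 69.4 and 95.3 CPM. Apart from SCVS replicate 3, all SCVS values lay below those of naive replicates 1 to 4 and above that of naive replicate 5. The means of Nrp2 were 123 ± 75.0 and 106.3 ± 46.1 CPM (SD, n = 5 each). Its log2 fold change was −0.24 (standard error 0.69; exact two-sided permutation p = 0.698), and −0.55 (standard error 0.38) without naive replicate 5, when the naive mean was 153 ± 40.5 CPM (SD, n = 4).

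Ligand transcripts were counted far less evenly than those of the receptors, and at lower levels. Means over the 10 libraries were 1.03 to 29.85 CPM for the ligands and 112 to 1072 CPM for the receptors and neuropilins. The part of level in this unevenness was not tested. Vegfa, Vegfb, Vegfc and Pgf each had 0 counts in at least 1 library and at least 100 in another, that is 4 of the 10 genes (40.0%) against 48.3% of all genes tested. Flt1, Kdr, Flt4, Nrp1 and Nrp2 had more than 3 counts in all 10 libraries, that is 5 of 10 (50.0%) against 38.1% of all genes tested. The coefficient of variation over the 10 libraries was 42.2% to 70.2% for these 5 genes and 95.7% to 242.5% for the 5 ligands, where the median of all genes tested was 92.8% and that of the 1966 genes with a mean of at least 100 CPM was 43.3%.

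Vegfc (ENSMUSG00000031520), which encodes the main lymphatic growth factor and is overlapped by Gm33153, was counted 1, 472, 138, 266 and 0 times in naive replicates 1 to 5 and 666, 1556, 334, 102 and 220 times in SCVS replicates 1 to 5. It was thus counted in every SCVS library, and was at or below 1 count in the naive libraries that were also lowest in the lymphatic list, replicates 1 and 5. Its mean was 13.3 ± 15.5 CPM in naive and 46.4 ± 47.7 CPM in the SCVS group (SD, n = 5 each), 3.49 times as high, and SCVS replicates 1 and 2 lay above every naive library with 47.3 and 127.8 CPM. The log2 fold change was 1.72 (standard error 1.49) and the exact two-sided permutation p was 0.135. Without SCVS replicate 2 the log2 fold change was 0.98, and without naive replicates 1 and 5 it was 1.00 (standard error 0.97).

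Vegfd (ENSMUSG00000031380, chromosome X, 164373522 to 164402650), the other ligand of VEGFR3, was counted 2, 43, 0, 17 and 0 times in naive replicates 1 to 5 and 41, 0, 0, 34 and 0 times in SCVS replicates 1 to 5. It was above 3 counts in 4 of 10 libraries, 2 of each group, and a count of 3 corresponds to 0.213 to 0.301 CPM at these depths. A difference in Vegfd could not be resolved, with a log2 fold change of 0.20 and a standard error of 2.04. The part of depth in this was not tested.

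Pgf (ENSMUSG00000004791, chromosome 12, 85166637 to 85177785), placental growth factor, a ligand of VEGFR1, was counted 1, 242, 0, 150 and 496 times in naive replicates 1 to 5 and 625, 221, 221, 723 and 0 times in SCVS replicates 1 to 5. Of the SCVS libraries, replicates 1 and 4, with 44.3 and 54.6 CPM, lay above every naive library, while SCVS replicate 5 had no count. The means were 13.5 ± 15.5 CPM and 27.0 ± 22.1 CPM (SD, n = 5 each), with a log2 fold change of 0.98 (standard error 1.79) and an exact two-sided permutation p of 0.310. Without naive replicate 5 the log2 fold change was 1.85 (standard error 2.01).

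Vegfa (ENSMUSG00000023951, chromosome 17, 46016993 to 46032377), the principal ligand of VEGFR2, was counted 96, 5, 3, 203 and 370 times in naive replicates 1 to 5 and 15, 271, 171, 0 and 302 times in SCVS replicates 1 to 5. High and low libraries occurred in both groups. Its means were 10.51 ± 11.5 CPM and 13.5 ± 13.2 CPM (SD, n = 5 each), with a log2 fold change of 0.30 (standard error 1.74; exact two-sided permutation p = 0.714). It was 1.08 (standard error 1.94) without naive replicate 5 and −0.27 (standard error 1.94) without SCVS replicate 5. These were the libraries highest in Vegfa, with 27.8 and 30.3 CPM, and also in Snap25 and Syt1. By contrast, SCVS replicate 4, with 2518 counts of Snap25, 3555 of Gfap and 13045 of Mbp, had 0 of Vegfa. SCVS replicate 2, with 0 counts of Snap25 and of Syt1, had 271 of Vegfa. The part of neural transcripts in the Vegfa values was not tested.

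Vegfb (ENSMUSG00000024962, chromosome 19, 6982472 to 6987651), a ligand of VEGFR1, was counted 0, 0, 17, 8 and 620 times in naive replicates 1 to 5 and 22, 29, 2, 1 and 69 times in SCVS replicates 1 to 5. Naive replicate 5 alone held 80.7% of all its counts, followed by SCVS replicate 5, the same libraries that were highest in Snap25 and Syt1. SCVS replicate 4, with 3555 counts of Gfap and 13045 of Mbp, had 1 of Vegfb. The part of neural transcripts was not tested. The log2 fold change of −2.18 (standard error 2.23; exact two-sided permutation p = 0.897) became 2.22 (standard error 1.95) without naive replicate 5. The naive mean was then 0.452 ± 0.581 CPM (SD, n = 4) against 2.22 ± 2.80 CPM in SCVS mice (SD, n = 5).

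Receptor levels were next set against the marker lists over the 10 libraries, on the scale of log2(CPM + 1), with the score of a list being the mean over its genes. Flt4 rose and fell with the lymphatic score, with Pearson's r of 0.82 (permutation p = 0.00300; 0.0180 after adjustment over 6 relations) and Spearman's rho of 0.87 (permutation p = 0.00207; adjusted 0.0124). Without naive replicates 1 and 5, which were farthest from the median score, r was 0.71. Nrp2 did not pass the test against the same score (r = 0.44, permutation p = 0.201, adjusted 0.201; rho = 0.38, permutation p = 0.279, adjusted 0.445), with r of 0.44 without the same libraries. Without naive replicate 1 alone, r for Nrp2 was 0.78 and passed (adjusted permutation p = 0.0287), and without naive replicate 5 alone it was 0.14. No relation was computed within a group of 5 libraries.

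Against the blood endothelial score, Flt1 had an r of 0.91 (permutation p = 0.0394, adjusted 0.0789) and a rho of 0.37 (permutation p = 0.297, adjusted 0.445). Kdr had an r of 0.83 (permutation p = 0.0601, adjusted 0.0902) and a rho of 0.20 (permutation p = 0.582, adjusted 0.582), and Nrp1 an r of 0.82 (permutation p = 0.00667, adjusted 0.0200) and a rho of 0.58 (permutation p = 0.0880, adjusted 0.264). Without naive replicate 5 and SCVS replicate 3, the libraries farthest from the median score, r was 0.12 for Flt1, −0.16 for Kdr and 0.34 for Nrp1. These relations rested on naive replicate 5, without which alone r was 0.10, −0.085 and 0.55, whereas without SCVS replicate 3 alone it was 0.92, 0.83 and 0.84. The adjusted permutation p of Nrp1 was 0.388 without naive replicate 5, 0.0712 without SCVS replicate 3 and 0.0545 without naive replicate 3, and that of Flt1 was 0.0435 without naive replicate 1. The relation of Kdr with Flt4 did not pass the test (r = 0.55, permutation p = 0.0937, adjusted 0.112; rho = 0.28, permutation p = 0.428, adjusted 0.514), and r was −0.31 without naive replicate 5 and SCVS replicate 2. Without naive replicate 1 alone r was 0.72 and passed (adjusted permutation p = 0.0435), and without naive replicate 5 alone it was −0.0047.

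**Figure D4:**
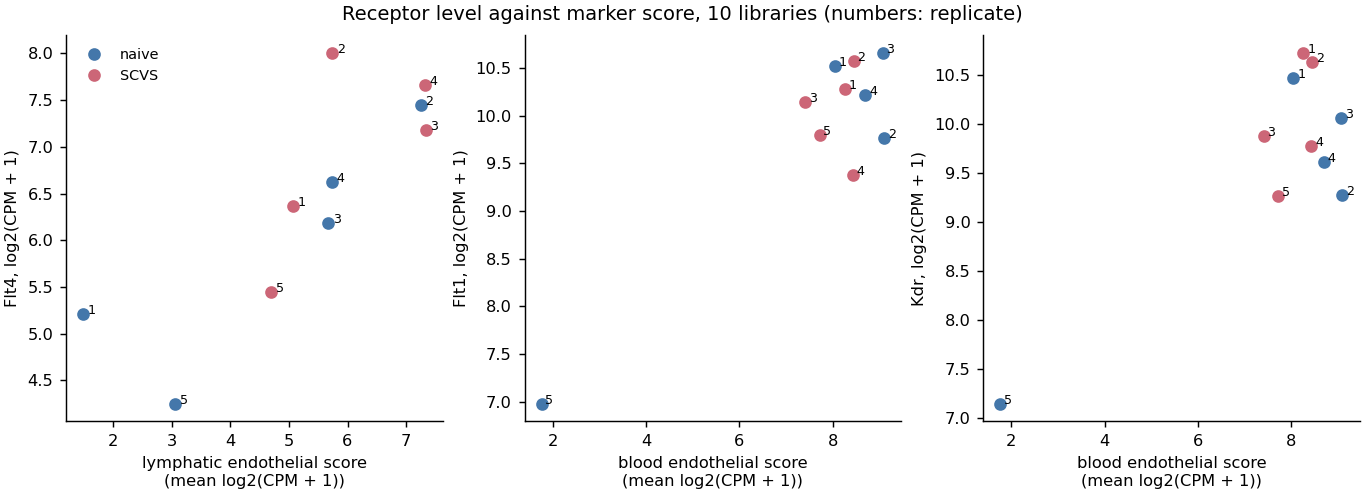
Level of Flt4 against the lymphatic score and of Flt1 and Kdr against the blood endothelial score (all in log2(CPM + 1)), 1 point per library with its replicate number, blue for naive and red for SCVS. Flt4 was higher where the lymphatic score was higher (r = 0.82), with naive replicates 1 and 5 lowest in score, whereas naive replicate 5 lies alone at the low end of the blood endothelial score.

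As a description, the genes tested whose log2(CPM + 1) was most correlated with that of Kdr over the 10 libraries were Crim1 (r = 0.97), Rasgrp3 (r = 0.97) and Igfbp7 (r = 0.96), and those most correlated with Flt4 were Myh9 (r = 0.95), Notch2 (r = 0.92) and Thbs1 (r = 0.91). They are the highest among all genes tested, and the points share libraries and depth.

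The other genes of VEGF signalling were followed in 4 lists, and none of their genes passed the adjusted threshold of 0.1 (quasi-likelihood test of edgeR) in either direction. Of 8 genes that process VEGF-C and VEGF-D, 5 passed the filter, with a median log2 fold change of 0.03, and the proteases Adamts3, Adamts14 and Plg did not pass. Ccbe1, the scaffold on which VEGF-C is cleaved, had 575 counts in naive replicate 3 and 13 or fewer elsewhere, for a log2 fold change of −4.34 (standard error 2.79), and Pcsk7, a proprotein convertase, had 0.22 (standard error 1.47). Of 15 receptor partners and regulators, 14 passed, with 7 positive and 7 negative log2 fold changes. Here Dab2, an endocytic adaptor, had 0.88 (standard error 0.62) and Gipc1, an adaptor of neuropilin 1, had −0.71 (standard error 0.70).

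All 28 genes of the signalling cascade passed the filter, with 15 positive and 13 negative log2 fold changes and a median of 0.03, where the median of all genes tested was −0.03. The kinase gene Pdpk1 had 629 to 1606 counts in naive and 165 to 537 counts in SCVS libraries, not scaled to depth. Scaled to library totals, SCVS replicate 5 (486 of 9984743 reads) lay above naive replicate 4 (629 of 13572896). The groups thus overlapped in CPM. The log2 fold change of Pdpk1 was −1.67 (standard error 0.58). Pdpk1 was the 1 gene of the 28 with an unadjusted p under 0.05 by edgeR, where 3.1% of all genes tested passed. It is named for the smallest p among the negative log2 fold changes of the list. Its adjusted p by edgeR was 0.964. The adaptor Grb2 had a log2 fold change of 1.69 (standard error 1.13). Of 14 VEGF response genes, all passed, 11 with a positive and 3 with a negative log2 fold change and a median of 0.26, against 7137 positive and 7678 negative over all genes tested. Cxcr4, a chemokine receptor also expressed by leukocytes, had 0, 1, 0, 0 and 0 counts in naive and 31, 1, 0, 13 and 241 counts in SCVS replicates 1 to 5 (adjusted p by edgeR = 0.964). The SCVS libraries with the most Cxcr4 had counts of the leukocyte gene Ptprc, 27, 113 and 404 in SCVS replicates 1, 4 and 5. SCVS replicates 2 and 3 had 0 counts of Ptprc. Other myeloid genes did not all follow Cxcr4. SCVS replicate 3, with 0 counts of Cxcr4, had 6457 of Lyz2, 2103 of Mrc1 and 305 of Csf1r. SCVS replicate 5, highest in Cxcr4, had 1568 of Lyz2, 206 of Csf1r, 2 of Mrc1 and 0 of Cd68. Naive replicate 4, also with 0 counts of Cxcr4, had 3532 of Lyz2. Of the 5 myeloid genes, 0 to 4 were above 3 counts in naive and 2 to 5 in SCVS libraries. The part of leukocyte transcripts in Cxcr4 was not tested. Rcan1, a target of calcineurin signalling, had a log2 fold change of −0.29 (standard error 1.40).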

How the data were processed

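RNA of cells sorted as meningeal LECs, from 5 naive and 5 SCVS pools of female mice, was amplified with a whole-transcriptome kit. It was sequenced by the authors, and raw counts per gene were deposited without normalization. Per the labels' processing notes, reads were trimmed with cutadapt 1.9.1, aligned with HISAT2 2.0.1 and counted with HTSeq 0.6.1. The notes give the build as GRCm38 and the published methods as mm9. Of the 55401 identifiers, 22812 are not in GENCODE M1, an mm9 annotation, and 7746 of these had counts, so coordinates and promoter windows are those of RefSeq on GRCm38.p6 and only exon lengths come from GENCODE M1. The use of strand in counting is not given in the sources used here. The RefSeq spans of Gm33153 over Vegfc, Gm35383 over Flt1, Gm32727 over Kdr, Mir1903 and Gm32643 over Nrp1, and Gm29083 and 4930487H11Rik over Nrp2 overlap. Their exons and strands in RefSeq were not compared, so whether reads of these members are affected is uncertain. In GENCODE M1 only Mir1903 overlaps a member, at an exon of Nrp1 on the same strand.

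Libraries were grouped by their labels. Genes above 5 counts in 3 or more of the 10 libraries were tested with edgeR 4.0.16 (R 4.3.3; TMM, quasi-likelihood test, Benjamini-Hochberg adjustment over all genes, threshold 0.1), and CPM with a two-sided exact permutation test over 252 assignments. The standard error is the absolute log2 fold change divided by the square root of F. Relations used 100000 resamples. Fits and tests were checked on simulated data. Recovery of changed genes by the edgeR fit was required only at a spread far below that of these libraries. Their common biological coefficient of variation in edgeR was 1.59, so this check does not show which changes would be found here. Alternatives were DESeq2 1.42.0, limma 3.58.1 with voom, other filters and scalings, a replicate block and leaving out libraries. Python 3.11.15, NumPy 2.4.6, SciPy 1.17.1, pandas 2.3.3 and Matplotlib 3.10.9 were used. The floor of 3 counts covers counting error only, since amplified reads carry no molecular identifiers. The members and lists were chosen with earlier results of these data known. The genes named are the 10 members and, in each pathway list, the gene with the smallest p in each direction. The 3 genes most correlated with Kdr and with Flt4 are also named. Ptprc, Lyz2, Mrc1, Csf1r, Cd68, Snap25, Syt1, Gfap and Mbp were given singly after their values were seen. The published methods state at least 2 cohorts of mice, and no label ties a library to a cohort. Whether cohort and group coincide is thus not known, and cohort could not be adjusted for. The summed level of 1 further marker list is not reported here.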

Additional observations from a re-analysis of the deposited data

Results flagged for a closer look

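Among the 20 sets of 5 libraries (10 genes in 2 groups) that were searched for a library far from the others, Vegfb in naive replicate 5 stood out, with 46.5 CPM where the other naive libraries had 0 to 1.22 CPM. The search used Dixon's ratio, the gap of the outermost value over the range, with a cut-off of 0.71. For normally distributed values chance alone marks about 1 in 20 such sets. The rate for skewed CPM with values of 0 was not computed. The same library had the lowest Flt1, Kdr, Flt4, Nrp1 and Nrp2 of all 10 and the lowest pan-endothelial marker sum, 408 CPM. It also had the highest counts of the neuronal genes Snap25 (20496) and Syt1 (1718) and of the myelin gene Mbp (16599). Its Gfap count was 2050, against 3555 in SCVS replicate 4, which had 13045 counts of Mbp and 1 of Vegfb. The part of neural transcripts in the Vegfb value was not tested.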

How the results depend on the processing

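No member passed the threshold under any alternative run in which it was tested. Vegfb had no p-value in DESeq2 with its Cook filter, and an adjusted p of 0.9999 in DESeq2 without it. Vegfd did not enter the fit with the filterByExpr filter of edgeR, which held 9 of the members. The number of all genes called was 0 in edgeR's quasi-likelihood test, 114 in DESeq2, 123 in DESeq2 without the Cook filter and 3 in limma with voom, and 0 whichever library was left out. In limma with voom the log2 fold change turned to 1.70 for Vegfb, −1.26 for Vegfd and 0.12 for Flt1. With CPM over the TMM effective library size the difference of Flt1 (SCVS minus naive) turned to −13.6 CPM, and on the log2(CPM + 1) scale that of Nrp2 turned to 0.36. Leaving out both naive replicates 1 and 5, chosen after seeing the marker lists, gave 1.82 for Vegfb and −0.47 for Vegfd. The cause of these turns was not tested.

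When each library was left out in turn, the log2 fold change ranged from −0.27 to 1.08 for Vegfa, −3.32 to 2.22 for Vegfb, 0.98 to 2.57 for Vegfc, −0.54 to 1.58 for Vegfd, 0.52 to 1.85 for Pgf, −0.30 to 0.19 for Flt1, 0.16 to 0.76 for Kdr, 0.58 to 1.32 for Flt4, −0.49 to 0.060 for Nrp1 and −0.56 to 0.036 for Nrp2. The difference in mean CPM ranged from −1.21 to 7.30 for Vegfa, −9.86 to 1.77 for Vegfb, −0.320 to 0.735 for Vegfd, −197 to 175 for Flt1, −286 to 75.0 for Nrp1 and −46.8 to 5.48 for Nrp2. Pearson's r ranged from 0.79 to 0.89 for Flt4 and from 0.14 to 0.78 for Nrp2 against the lymphatic score, from 0.10 to 0.94 for Flt1, −0.085 to 0.89 for Kdr and 0.55 to 0.90 for Nrp1 against the blood endothelial score, and from −0.0047 to 0.72 between Kdr and Flt4. Without naive replicate 1 the relations of Nrp2, of Flt1 and of Kdr with Flt4 passed 0.05 after adjustment, and without naive replicates 3 or 5 or SCVS replicate 3 that of Nrp1 no longer did.

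Same-numbered libraries were taken to share only a number, since no label pairs them. Their deviations from the group means correlated at −0.0169 to 0.149, with only replicate 5 over 0.1. As a hint of the opposite from the data, 4 of 5 naive libraries correlated best with their own number. With a replicate block, 0 genes were called and 266 had an unadjusted p under 0.05, against 460 without it, and the log2 fold change turned to 0.28 for Flt1 and 0.064 for Nrp2. It was 0.96 (standard error 0.38) for Flt4, the 1 member then under an unadjusted p of 0.05 (adjusted p by edgeR = 1.0), 3.12 for Vegfc, 2.79 for Pgf and −0.43 for Vegfb.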
